A study of Rattus norvegicus with 56 samples.

Results

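Acetylation of lysine 9 on histone H3 (H3K9ac) was compared between the ipsilateral side, where the bleed was, and the contralateral side of the brain of 21-month-old rats with an intracerebral haemorrhage, in which a ruptured vessel bleeds into the brain. All peaks of the 2 peak lists were taken, 222955 of the 1619269 peaks in the 16 lists of the series: 102607 peaks in ipsilateral tissue and 120348 in contralateral tissue. A peak was called promoter-type when it overlapped or lay within 2 kb of a peak of trimethylated lysine 4 (H3K4me3) in either 21-month tissue, and distal otherwise. This gave 39882 promoter-type and 62725 distal peaks on the ipsilateral side, against 41965 and 78383 on the contralateral side. Both groups carried the haemorrhage and were given no agent, per the labels, which name no strain, sex, brain region or time after the bleed. No tissue from rats without a haemorrhage was used here, so the contralateral side is the only comparison. The age is that of the sample labels; the design text of the series writes 22 months instead of 21.

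H3K9ac is laid down by acetyltransferases at the start sites of transcribed genes and at active enhancers, and it is removed by histone deacetylases. H3K4me3 marks promoters and is sparse at most enhancers, so acetylated regions near H3K4me3 and far from it separate promoter-type from distal positions by a second mark. H3K27me3, used below as a contrast, is the mark of Polycomb repression and is generally found away from strongly acetylated chromatin. Neither the labels nor the lists name the genome build of the coordinates. No gene, sequence or cell type marker was therefore assigned to a peak, and positions are printed as the authors' lists give them.

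Each list was called from 2 ChIP and 2 input libraries pooled beforehand, so no value has a spread between replicates and the sides cannot be tested against each other. Whether the 2 libraries came from different rats is not stated. Intervals are 95% Wilson intervals for shares, and order-statistic intervals for medians. They cover counting error over peaks only, and neighbouring peaks are not independent. The peak caller kept 66910243 ChIP tags (reads) for the ipsilateral side, against 99213634 for the contralateral side, after 22% and 13% of tags had been removed as duplicates. Input tags kept numbered 74135382 ipsilaterally and 79914930 contralaterally. The authors' fold, the ChIP coverage at a peak's summit over the local background, had the same median of 2.96 in both lists. The part of depth and duplication in the differences below was not tested. In tissue, a change in the share of cells that carry a mark and a change in the mark per cell cannot be told apart.

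Counting any overlap, promoter-type acetylation was mostly common to both sides, and distal acetylation mostly was not. Over both classes, 48.4% of ipsilateral peaks had no contralateral peak overlapping them by at least 1 bp, and 56.4% of contralateral peaks had no ipsilateral one. Of the promoter-type peaks, 76.9% (76.5 to 77.3) of ipsilateral and 72.5% (72.0 to 72.9) of contralateral peaks were shared. Among distal peaks these shares were 35.4% (35.1 to 35.8) on the ipsilateral side and 28.1% (27.8 to 28.4) on the contralateral side. When both peaks of a pair had to be covered over at least 50% of their length, the promoter-type shares were 47.6% ipsilaterally and 45.3% contralaterally, and the distal shares 15.9% and 12.7%. At any overlap, side-only peaks numbered 9206 promoter-type and 40491 distal on the ipsilateral side, against 11555 and 56376 on the contralateral side. A peak of 1 list could meet several of the other: 11.4% of shared promoter-type ipsilateral peaks overlapped at least 2 contralateral peaks, and 11.5% the other way.

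With each peak counted over its full length, side-only peaks made up a small part of the covered bases near H3K4me3 and the larger part away from it. Bases of a shared peak that the other side lacked were not separated. Ipsilateral-only peaks covered 3.59 Mb near H3K4me3 and 13.8 Mb away from it, while shared ipsilateral peaks covered 31.6 and 11.5 Mb. Contralateral-only peaks covered 4.67 Mb near H3K4me3 and 20.5 Mb away from it, while shared contralateral peaks covered 35.8 and 12.9 Mb. The side-only peaks were short on both sides. Their median length was 318 bp ipsilaterally and 318 bp contralaterally in the promoter-type class, where shared peaks had medians of 813 and 888 bp. Distal side-only peaks had medians of 286 bp on the ipsilateral and 295 bp on the contralateral side, and shared distal ones 388 and 439 bp.

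With equal numbers of peaks, the 102607 of highest −log10 q-value on each side, the shared percentages of the sides became nearly alike. Covered bases still differed, with 60.6 Mb ipsilaterally and 68.2 Mb contralaterally. The equal number removed contralateral peaks with a −log10 q-value under 2.58. Over both classes 51.9% of ipsilateral and 52.9% of contralateral peaks then had no partner. The promoter-type shares were 74.5% ipsilaterally and 74.8% contralaterally, so the order of the sides turned round. Distal shares were 31.3% ipsilaterally and 30.1% contralaterally. Promoter-type peaks were still shared far more often than distal ones on each side, while the sides now lay close to each other. At a −log10 q-value of at least 5 in both lists, the contralateral share was the higher one in both classes, with 73.6% of ipsilateral and 79.9% of contralateral promoter-type peaks, and 25.4% and 31.6% of distal ones.

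Sharing followed the distance to H3K4me3 without a step at 2 kb. Peaks that overlapped an H3K4me3 peak were shared in 88.4% of 29145 ipsilateral cases and 87.8% of 29656 contralateral cases. Peaks in the flank, within 2 kb but not overlapping, were shared in 45.8% of 10737 ipsilateral and 35.6% of 12309 contralateral cases, and the flank held 5818 of the 9206 ipsilateral-only and 7923 of the 11555 contralateral-only promoter-type peaks. Just inside the limit, at over 1000 and up to 2000 bp, 39.4% of ipsilateral and 33.3% of contralateral peaks were shared. Just outside it, at over 2000 and up to 3000 bp, the shares were 36.4% and 32.6%. Over 100000 bp away they were 32.2% ipsilaterally and 18.9% contralaterally. Flanking peaks as a whole were shared more often than distal ones on the same side and less often than peaks that overlapped H3K4me3. Their median length was 325 bp ipsilaterally and 331 bp contralaterally.

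**Figure D1:**
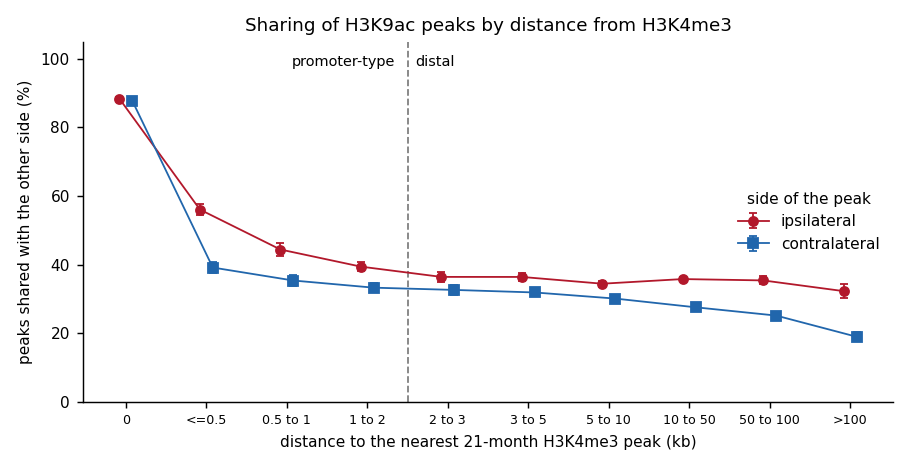
Share of H3K9ac peaks with an overlapping peak on the other side (vertical axis, percent) by distance to the nearest 21-month H3K4me3 peak (horizontal axis, kb, in uneven steps), for ipsilateral (red circles) and contralateral (blue squares) peaks; bars are 95% Wilson intervals over peaks. Both lines start near 88% at overlap with H3K4me3, drop below 60% within 500 bp and show no step at the dashed 2 kb limit.

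Seen from H3K4me3, acetylation was common to both sides at most regions that carried H3K4me3 on both. Of 22576 such regions, 20001 (88.6%) had H3K9ac on both sides, 1100 (4.87%) on the ipsilateral side alone, 700 (3.10%) on the contralateral side alone and 775 (3.43%) on neither. Regions with H3K4me3 on 1 side only were short, with a median of 195 bp for the ipsilateral and 220 bp for the contralateral side, and often without H3K9ac. Of the 5586 with ipsilateral H3K4me3 alone, 73.0% had no H3K9ac peak, and 266 had ipsilateral and 266 contralateral H3K9ac alone. Of the 12182 with contralateral H3K4me3 alone, 45.8% had none, while 1000 (8.21%) had ipsilateral and 840 (6.90%) contralateral H3K9ac alone. A region with H3K4me3 on 1 side only was thus no more often acetylated on that side alone than on the other side alone.

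Above a −log10 q-value of 5, sharing rose with strength in both classes and on both sides. Among weaker contralateral peaks it did not rise steadily. At over 1.3 and up to 2, 47.6% of promoter-type and 24.9% of distal contralateral peaks were shared. At over 2 and up to 3 these shares were 39.8% and 19.0%. Of promoter-type peaks with a −log10 q-value over 50, 12911 of 12938 ipsilateral (99.8%) and 5930 of 5930 contralateral peaks were shared. Distal peaks rarely reached that value, with 68 ipsilateral and 2 contralateral peaks, of which 66 and 2 were shared. At a −log10 q-value over 5 and up to 10, promoter-type sharing was 57.7% ipsilaterally and 58.1% contralaterally, and distal sharing was 33.4% and 34.5%. Between 10 and 20 distal sharing was 54.2% ipsilaterally and 65.4% contralaterally, and between 20 and 50 it was 84.3% and 89.1%. A distal peak was thus less often shared than a promoter-type peak of like q-value up to 20, and the classes came close only among the strongest. Length gave the same picture, since distal peaks of over 1000 and up to 2000 bp were shared in 82.2% of ipsilateral and 69.8% of contralateral cases, and those of up to 250 bp in 22.9% and 16.5%.

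**Figure D2:**
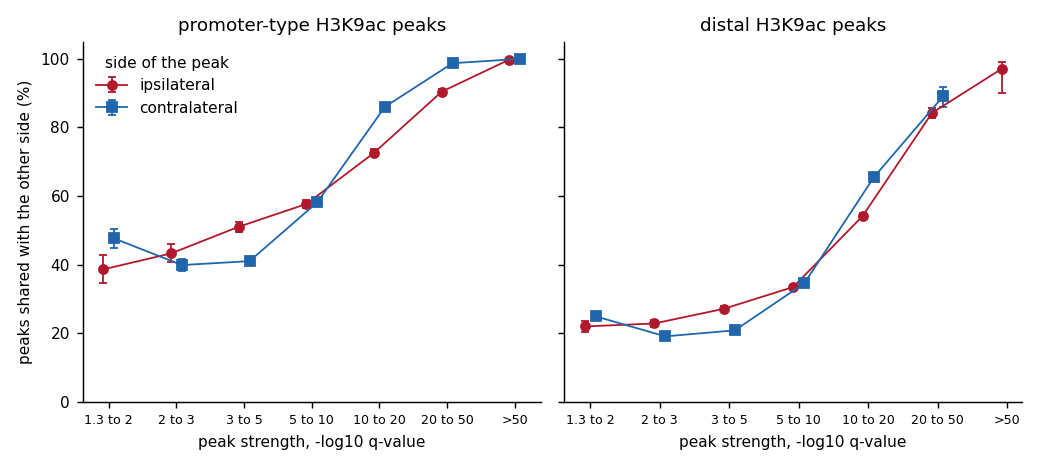
Share of H3K9ac peaks with an overlapping peak on the other side (vertical axis, percent) by −log10 q-value of the peak (horizontal axis, in uneven steps), for promoter-type (left) and distal (right) peaks of the ipsilateral (red circles) and contralateral (blue squares) list; bars are 95% Wilson intervals over peaks. Above 50 nearly all peaks were shared; the group of 2 contralateral distal peaks above 50 is not drawn.

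The steepest peaks lay near H3K4me3, and the ipsilateral list held more of them. A fold of 8 or more was reached by 5736 ipsilateral peaks (5.59% of the list) and 1215 contralateral peaks (1.01%). Of these, 5716 ipsilateral and 1202 contralateral peaks were promoter-type, and 20 and 13 were distal. Only 9 ipsilateral and 13 contralateral peaks of such a fold had no overlap on the other side. At a fold of 4 or more the class difference was smaller, with 19169 promoter-type and 5080 distal ipsilateral peaks, against 15513 and 5700 contralaterally. The folds of lists that differ in depth and background are not on 1 scale, so ranks within each list were used next.

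Ranked by fold within its own list, the top 10% of the ipsilateral list was more of the promoter type than that of the contralateral list. Of the 10261 top ipsilateral peaks, with a fold of at least 6.40, 98.4% were promoter-type and 99.6% were shared. Of the 12039 top contralateral peaks, with a fold of at least 4.76, 86.9% were promoter-type and 89.3% were shared. Distal members were few on the ipsilateral side, since 10101 of the 10261 top peaks were promoter-type, against 10465 of 12039 contralaterally. They were shared in 91.9% of ipsilateral and 48.7% of contralateral cases, at unlike fold limits. Among distal peaks with a −log10 q-value over 20 and up to 50 the order was the reverse, with 84.3% and 89.1%. At the other end of the ranking by fold the sides differed the opposite way from the top 10%. In the bottom 10%, 20.6% of ipsilateral and 56.6% of contralateral peaks were shared.

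The contralateral list thus contained steep peaks with no partner, and contralateral-only distal peaks as a whole had a low local background. Median fold percentiles (0 the lowest of a list, 100 the highest) of distal peaks were 52.0 where shared and 32.8 where side-only on the ipsilateral side, but 33.9 where shared and 46.8 where side-only on the contralateral side. Coverage at the summit, scaled to 1000000 kept tags and called scaled coverage here, did not show that inversion. It had medians of 0.613 in shared and 0.583 in side-only ipsilateral distal peaks, against 0.474 and 0.302 in contralateral ones. The local background that the fold divides by, scaled in the same way, was 0.189 at shared and 0.216 at side-only ipsilateral distal peaks, against 0.170 and 0.0896 at contralateral ones. The peak caller's uniform genome background is set only by the genome size and the length to which tags were extended. It was 0.0737 ipsilaterally, with tags extended to 199 bp, and 0.0667 contralaterally, with 180 bp. Contralateral-only distal peaks therefore had lower summits than shared ones over a lower background, and the part of the background in their rank was not tested.

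Where 1 peak met exactly 1 peak of the other list, the ipsilateral one was slightly shorter and ranked somewhat higher within its own list. There were 20628 such promoter-type pairs and 17798 distal pairs. Promoter-type pairs had median lengths of 781 bp on the ipsilateral and 828 bp on the contralateral side, a median log2 length ratio of −0.085 (−0.095 to −0.076). Distal pairs had 373 and 424 bp, a median log2 ratio of −0.10 (−0.12 to −0.085). The size of this difference depended on the overlap and the threshold. With a reciprocal overlap of 50% the medians were −0.056 for promoter-type and −0.028 (−0.042 to −0.012) for distal pairs, and at a −log10 q-value of at least 5 they were −0.11 and −0.18. The peak caller extended tags to 199 bp in the ipsilateral list and 180 bp in the contralateral one, and the part of this in the lengths was not tested.

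Median fold percentiles of promoter-type pairs were 82.9 ipsilaterally and 77.2 contralaterally. The median difference, ipsilateral minus contralateral, was 3.50 (3.24 to 3.76) percentiles, and it was above 0 in 60.4% of pairs. Distal pairs had 50.5 ipsilaterally and 33.9 contralaterally, with a median difference of 9.65 (9.05 to 10.2), above 0 in 61.7% of pairs. With equal numbers of peaks the medians of the difference were 5.37 over 19911 promoter-type pairs and 12.4 over 15582 distal pairs, and at a −log10 q-value of at least 5 they were 8.999 and 13.7. A percentile also depends on the side-only peaks ranked in the same list. Side-only peaks had median percentiles of 35.7 ipsilaterally and 47.7 contralaterally in the promoter-type class, and 32.8 and 46.8 in the distal class. Their part in the differences within pairs was not tested. Single pairs scattered widely around the medians of the difference. Among promoter-type pairs 43.9% lay within 10 percentiles of each other, 23.9% were higher ipsilaterally by over 25 and 8.47% higher contralaterally by over 25. Among distal pairs these shares were 23.5%, 32.7% and 14.6%.

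Promoter-type pairs kept their order between the sides better than distal pairs. Over promoter-type pairs the Spearman correlation between the sides was 0.628 for fold and 0.738 for length, and over distal pairs it was 0.218 and 0.210. These describe pairs from 2 pooled lists, in which neighbouring regions are not independent. Summits lay a median of 57 bp apart in promoter-type and 103 bp apart in distal pairs. Scaled coverage at the summit was higher ipsilaterally in 89.0% of promoter-type pairs, with medians of 1.48 ipsilaterally and 0.827 contralaterally and a median ratio of 1.83. In distal pairs it was higher in 82.1%, with medians of 0.598 and 0.464 and a median ratio of 1.31. The scaled local background differed in the same direction, with medians of 0.324 ipsilaterally and 0.232 contralaterally in promoter-type pairs, and 0.189 and 0.163 in distal pairs. The median coverage ratio was above 1 on each of the 21 chromosomes, between 1.69 and 1.94 for promoter-type and between 1.21 and 1.45 for distal pairs. Scaled coverage and background were not corrected for tag extension, which was 199 bp ipsilaterally and 180 bp contralaterally. The part of this in the ratios was not tested.

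**Figure D3:**
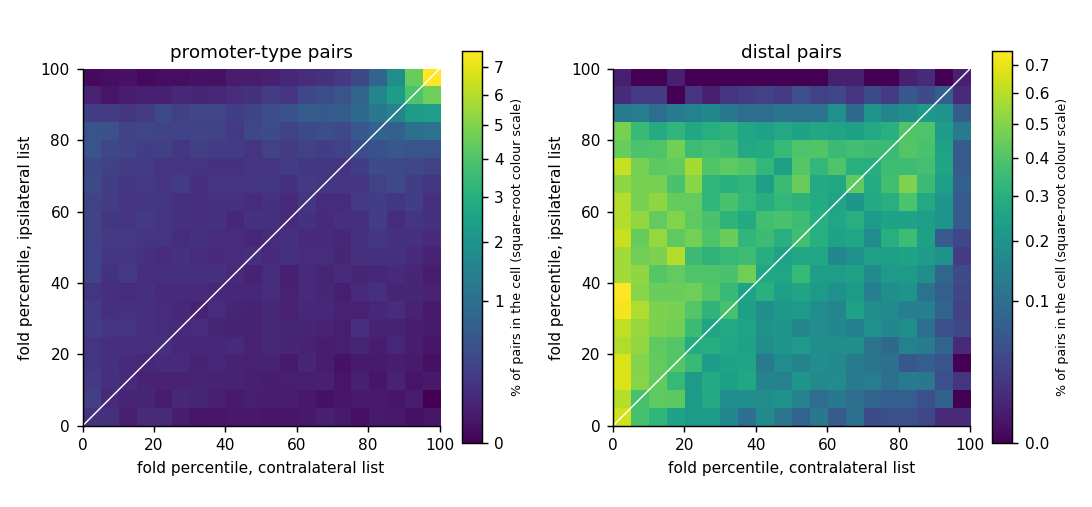
Fold percentile of one-to-one shared peaks in the ipsilateral list (vertical axis) and the contralateral list (horizontal axis), as percent of pairs per cell on a square-root colour scale, for 20628 promoter-type pairs (left) and 17798 distal pairs (right); the white line marks equal percentiles. Promoter-type pairs gather at the top right, while distal pairs spread over the plane with more of them above the line at low contralateral percentiles.

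The largest shifts within pairs, taken from the equal-number lists, show what the extremes look like. Toward the ipsilateral side, the promoter-type peak at chromosome 8, 21761381 to 21762452 had a fold of 9.33 ipsilaterally and 2.00 contralaterally. This region also held H3K27me3 on both sides, with folds of 5.77 ipsilaterally and 18.7 contralaterally. The next, at chromosome 5, 127042934 to 127044767, had H3K9ac folds of 8.07 and 1.96, and H3K27me3 folds of 2.82 and 8.30. The third, at chromosome 9, 65547630 to 65548094, had H3K9ac folds of 8.64 and 2.09 and no H3K27me3 peak. All 3 had H3K9ac peaks on both sides at 13 months, with folds of 7.13 ipsilaterally and 5.13 contralaterally at the region on chromosome 8, 6.71 and 11.0 at that on chromosome 5, and 5.74 and 2.68 at that on chromosome 9.

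Toward the contralateral side, the promoter-type peak at chromosome 13, 96111081 to 96111581 had a fold of 1.69 ipsilaterally and 8.07 contralaterally. Similar values were found at chromosome 7, 97760196 to 97760606, with 1.79 and 8.06, and at chromosome 3, 136938107 to 136938460, with 1.84 and 8.96. None of these 3 had an H3K27me3 peak at 21 months. They too had H3K9ac peaks on both sides at 13 months, with folds of 10.6 and 14.2 at the region on chromosome 13, 6.85 and 6.59 at that on chromosome 7, and 4.40 and 4.52 at that on chromosome 3.

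Distal pairs with the largest rank shifts were taken in the same way. The 3 that moved most toward the ipsilateral side lay at chromosome 7, 36273103 to 36273651, with folds of 6.89 ipsilaterally and 1.95 contralaterally, at chromosome 18, 71245103 to 71245707, with 6.54 and 1.99, and at chromosome 19, 53820754 to 53822590, with 6.25 and 1.89. On chromosome 19, this stretch had an H3K27me3 peak on the ipsilateral side, with a fold of 2.23, and none on the contralateral side. Toward the contralateral side, the region at chromosome 8, 50403053 to 50403471 had 1.70 ipsilaterally and 5.78 contralaterally. It was 419 bp long ipsilaterally, while its contralateral partner spanned 2372 bp. The regions at chromosome 3, 38507373 to 38508096 and at chromosome 19, 39543363 to 39543594 had 1.86 and 1.75 ipsilaterally, and 6.08 and 5.32 contralaterally.

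The longest shared ipsilateral peaks met between 1 and 6 contralateral peaks each. They were taken for their ipsilateral length, which favours shorter partners, so they do not compare the sides. Promoter-type peaks of over 5000 bp numbered 80 ipsilaterally and 160 contralaterally, and all were shared. The longest promoter-type ipsilateral peak, at chromosome 7, 12417159 to 12428813, spanned 11655 bp with a fold of 10.7, while 6 contralateral peaks with a highest fold of 4.45 covered 6892 bp of it. The next, at chromosome 12, 13801323 to 13812093, spanned 10771 bp and met 2 contralateral peaks that covered 10100 bp of it, with folds of 9.95 ipsilaterally and 5.38 contralaterally. The longest distal peak, at chromosome 8, 67475930 to 67482285, spanned 6356 bp with folds of 3.31 and 2.87. The second longest, at chromosome 10, 14873499 to 14879160, spanned 5662 bp with folds of 2.63 and 3.63. It also overlapped 5 ipsilateral and 6 contralateral H3K27me3 peaks. The third, at chromosome 1, 31871647 to 31876992, spanned 5346 bp and met a single contralateral peak of 5892 bp, with folds of 3.901 ipsilaterally and 5.31 contralaterally.

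Ipsilateral-only and contralateral-only peaks differed in how often they coincided with peaks of other tissues and marks. Of ipsilateral-only distal peaks 28.3% overlapped contralateral H3K27me3 and 16.1% ipsilateral H3K27me3, against 3.77% and 3.45% of contralateral-only distal peaks. Shared distal peaks lay between, with 12.1% and 6.21% for ipsilateral and 11.7% and 6.23% for contralateral ones. In the promoter-type class 45.6% of ipsilateral-only peaks overlapped contralateral and 36.4% ipsilateral H3K27me3, against 7.47% and 8.84% of contralateral-only peaks. Shared promoter-type peaks had 29.5% and 23.5% on the ipsilateral side and 31.2% and 24.8% on the contralateral side. The H3K27me3 lists covered 161 Mb ipsilaterally and 197 Mb contralaterally.

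That difference between ipsilateral-only and contralateral-only peaks remained among peaks of like q-value and like length. At a −log10 q-value over 5 and up to 10, contralateral H3K27me3 met 26.8% of ipsilateral-only and 3.40% of contralateral-only distal peaks. Among distal peaks of 250 to 350 bp it met 27.2% and 4.15%. The order of the sides was the same in each of the 6 alternative settings, in both classes and for both H3K27me3 lists, but the promoter-type levels moved. With a reciprocal overlap of 50%, contralateral H3K27me3 met 33.0% of ipsilateral-only and 17.6% of contralateral-only promoter-type peaks, and ipsilateral H3K27me3 met 26.98% and 16.0%. With promoter-type peaks defined by overlap with H3K4me3, contralateral H3K27me3 met 70.6% and 15.6%, and ipsilateral H3K27me3 63.6% and 18.9%. Shared promoter-type peaks of like q-value differed the other way. At a −log10 q-value over 5 and up to 10, contralateral H3K27me3 met 17.4% of ipsilateral and 37.4% of contralateral ones. For shared distal peaks of that q-value the shares were 10.4% and 10.7%.

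Acetylation was also mapped, with 1 ChIP library each, in ipsilateral tissue of 21-month animals that had received plasma from donors aged 3 or 22 months. Of ipsilateral-only distal peaks 37.3% had an H3K9ac peak with plasma of 22-month rats and 2.64% with plasma of 3-month rats. Of contralateral-only distal peaks 20.8% had one with plasma of 22-month rats and 14.2% with plasma of 3-month rats. In the promoter-type class the shares were 57.2% and 7.82% for ipsilateral-only peaks, against 40.9% and 26.2% for contralateral-only peaks. The 2 plasma lists hold 123863 and 50651 peaks, so their levels are not comparable with each other. For each list alone, the order of ipsilateral-only and contralateral-only peaks was the same in all 6 alternative settings and at a −log10 q-value over 5 and up to 10. The gap for plasma of 3-month rats narrowed with a reciprocal overlap of 50%, to 37.9% of ipsilateral-only and 43.9% of contralateral-only promoter-type peaks, and to 6.42% and 15.3% of distal ones. At a −log10 q-value of at least 5, plasma of 3-month rats met 15.3% and 39.6% of promoter-type and 4.86% and 22.4% of distal ones, and plasma of 22-month rats met 46.8% and 31.9% of distal ones. The list with plasma of 3-month rats, though of ipsilateral tissue, thus held a smaller share of ipsilateral-only than of contralateral-only positions.

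At 13 months the overlap did not follow the side. Of ipsilateral-only distal peaks 12.1% had an H3K9ac peak in 13-month ipsilateral and 25.8% in 13-month contralateral tissue. Of contralateral-only distal peaks 10.5% had one in ipsilateral and 15.0% in contralateral tissue. For the 13-month ipsilateral list the order of the 2 groups turned round at a −log10 q-value over 5 and up to 10, with 12.05% of ipsilateral-only and 13.7% of contralateral-only distal peaks. In the promoter-type class 26.0% of ipsilateral-only peaks had one in 13-month ipsilateral and 41.2% in 13-month contralateral tissue. For contralateral-only peaks these shares were 24.8% and 28.1%. There too the order for the ipsilateral list turned round at that q-value, with 23.6% and 29.2%. Most distal side-only peaks had none at 13 months, 67.6% of the ipsilateral-only and 78.0% of the contralateral-only ones. A 13-month peak on the same side alone was found for 6.65% of ipsilateral-only and 11.5% of contralateral-only distal peaks, and on the opposite side alone for 20.3% and 7.00%. The 13-month lists hold 69557 ipsilateral and 93770 contralateral peaks.

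**Figure D4:**
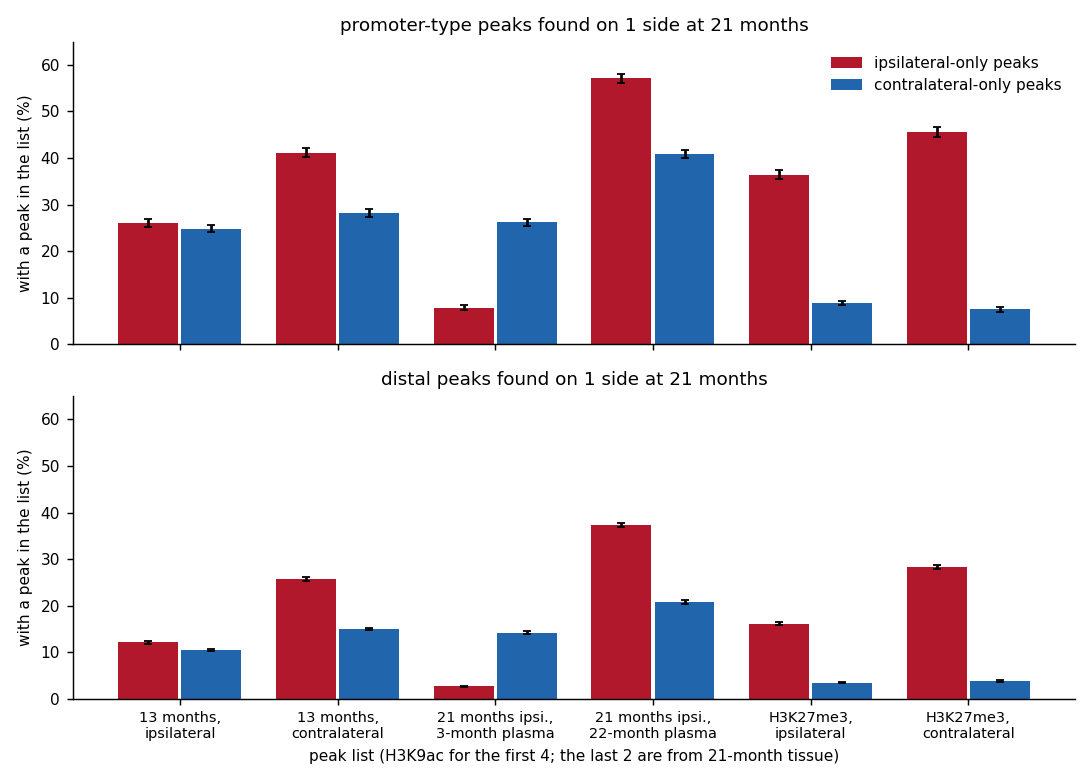
Share of side-only 21-month H3K9ac peaks that overlap a peak of another list (vertical axis, percent; bars start at 0) for promoter-type (top) and distal (bottom) peaks, with ipsilateral-only peaks in red and contralateral-only peaks in blue; error bars are 95% Wilson intervals over peaks. Ipsilateral-only peaks overlap H3K27me3 more often than contralateral-only peaks, and overlap the list with plasma of 3-month rats less often.

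Among the strongest side-only peaks, the contralateral ones were longer and were found again more often. The 9 ipsilateral-only peaks of fold 8 or more had a median length of 280 bp, and 4 of them had no peak in any of the 4 other H3K9ac lists (13 months on both sides and the 2 plasma groups). The 9 were not all on numbered chromosomes or X, since their highest fold was 30.9, against 10.8 on those chromosomes. The peak of fold 30.9 is not among the first 100 below. The 13 contralateral-only peaks of fold 8 or more, with a highest fold of 10.6, had a median length of 940 bp. Each was found in at least 1 of those lists and 8 in all 4. Among the first 100 promoter-type peaks by fold, 18 ipsilateral-only and 48 contralateral-only ones were in all 4. Among the first 100 distal peaks these numbers were 2 and 18.

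Of the ipsilateral-only promoter-type peaks on assembled chromosomes, the first by fold lay at chromosome 7, 10105398 to 10105674, with a fold of 10.8. It had an H3K4me3 fold of 11.9 ipsilaterally and 17.8 contralaterally, and H3K9ac folds of 6.28 with plasma of 3-month and 13.8 with plasma of 22-month rats. The following 4 lay at chromosome 2, 182113138 to 182113418 (fold 10.6), chromosome 11, 82844592 to 82844904 (10.5), chromosome 4, 29640181 to 29640444 (10.3) and chromosome 6, 75865658 to 75865918 (10.1). All 5 were 261 to 313 bp long and carried H3K4me3 on both sides. The peaks on chromosomes 11 and 4 lay 751 and 765 bp from a contralateral H3K9ac peak, and that on chromosome 6 lay 323 bp from one.

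Contralateral-only promoter-type peaks were led by chromosome 16, 62145852 to 62147348, 1497 bp long with a fold of 10.6. The nearest ipsilateral peak was 15917 bp away. The same position carried H3K4me3 on both sides at 21 months, with folds of 13.8 ipsilaterally and 20.2 contralaterally. It had H3K9ac at 13 months, with 6.89 ipsilaterally and 9.67 contralaterally, and with either plasma, 6.43 with that of 3-month and 4.50 with that of 22-month rats. The 21-month ipsilateral list was thus the only 1 of the 6 H3K9ac lists without a peak there. The region at chromosome 1, 178168008 to 178170086 (fold 10.2) was of the same kind, with 7.86 ipsilaterally and 3.52 contralaterally at 13 months. The others were chromosome 5, 35917885 to 35918368 (9.003), chromosome 1, 246025620 to 246026285 (8.81) and chromosome 2, 198386492 to 198388577 (8.69). The peak on chromosome 5 and that on chromosome 2 lay 482 and 747 bp from an ipsilateral H3K9ac peak.

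Distal side-only peaks of highest fold had lower folds on the ipsilateral side, though the folds of the 2 lists are not on 1 scale. Scaled coverage of the 5 named on each side ran from 0.583 to 0.822 ipsilaterally and from 0.595 to 0.816 contralaterally. The ipsilateral-only ones were chromosome 10, 37183090 to 37183391 (fold 7.25), chromosome 1, 75362646 to 75362973 (7.13), chromosome 14, 37893515 to 37893780 (6.81), chromosome 2, 256988912 to 256989174 (6.74) and chromosome 4, 77831270 to 77831549 (6.70). None of the 5 had an H3K9ac peak at 13 months. The peak on chromosome 2 coincided with H3K27me3, with folds of 3.14 ipsilaterally and 5.11 contralaterally. The contralateral-only ones were chromosome 5, 28412612 to 28413537 (10.5), chromosome 2, 14036922 to 14037905 (8.43), chromosome 10, 99942973 to 99943444 (8.43), chromosome 7, 53945384 to 53946323 (8.04) and chromosome 11, 89064011 to 89064288 (7.67). All 5 had an H3K9ac peak in 13-month contralateral tissue, and the first also had one at 13 months ipsilaterally and with either plasma, at folds of 3.05 to 4.80.

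The balance of the sides differed between chromosomes. On 17 of 21 chromosomes there were fewer ipsilateral-only than contralateral-only distal peaks, and the ratio had a median of 0.650. It was lowest on chromosome 2, with 1731 ipsilateral-only and 5038 contralateral-only peaks, a ratio of 0.344. It was highest on chromosome 12, with 1870 and 905, a ratio of 2.07, and above 1 on chromosomes 10, 19 and 20 as well. Promoter-type side-only peaks ran from 0.429 on chromosome 2 to 1.99 on chromosome 12. With equal numbers of peaks the distal ratio ran from 0.472 to 2.69 and was above 1 on 9 chromosomes.

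Chromosomes with a denser set of H3K4me3 regions had relatively more ipsilateral-only peaks. Chromosomes 12 and 10 held 20.9 and 22.7 H3K4me3 regions per Mb, and chromosomes 2 and X held 12.2 and 5.37. Over the 21 chromosomes the density and the log2 of the distal ratio had a Pearson correlation of 0.704 and a Spearman correlation of 0.792, and for the promoter-type ratio these were 0.811 and 0.799. Without chromosome X the distal values were 0.794 and 0.802, and with equal numbers of peaks the Spearman correlation was 0.770. These are descriptions over chromosomes that share both lists and their depth, and base composition along the chromosomes was not measured here.

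**Figure D5:**
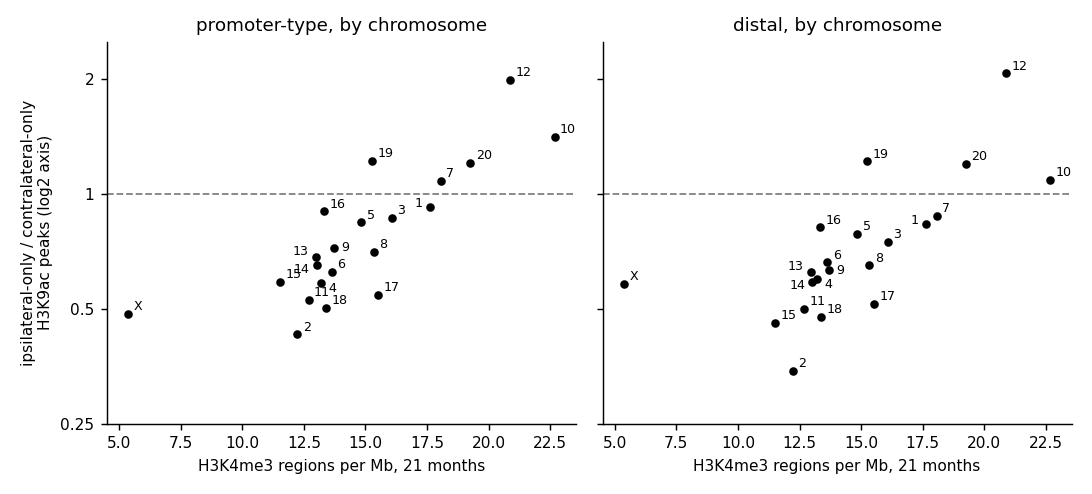
Ratio of ipsilateral-only to contralateral-only H3K9ac peaks per chromosome (vertical axis, log2 scale, dashed line at 1) against H3K4me3 regions per Mb at 21 months (horizontal axis), for promoter-type (left) and distal (right) peaks; each point is a chromosome, with its name. Chromosome 12 lies highest and chromosome 2 lowest in both panels.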

How the data were processed

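ChIP-seq peak lists of brain tissue were used as deposited. The authors used MACS, version 2.1.1.20160309, to call narrow peaks with a q-value limit of 0.05, an effective genome size of 2.70 Gb and single-end handling of tags, per the file headers, although the labels' protocols give paired-end sequencing. Cutadapt, Bowtie2 and HOMER are listed, with no role or version, in the submitters' processing notes. For the genome build, the labels and headers give no name. The deposited lists hold for each peak the pileup, a coverage (signal) value that the authors scaled to whichever total was smaller, ChIP or input, the fold, a ratio to local background, and the −log10 q-value, per the file headers.

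Pileup was rescaled from that total to 1000000 tags. After unscaling, 100% of contralateral pileups were whole fragments within 0.02. Local background was derived from pileup and fold, and it returned the deposited −log10 p-value of 2000 peaks with a median difference of 1.12e-05. Overlap, lengths and ranks came from scripts in Python 3.11.15 (pandas 2.3.3, numpy 2.4.6, scipy 1.17.1, matplotlib 3.10.9), and the overlap, class and pairing steps were tested on simulated data. No test of the sides was possible, since libraries were pooled before peak calling. Named regions lie on numbered chromosomes or X: for each class and side the 5 side-only peaks of highest fold, for each class the 3 one-to-one pairs with the largest rank difference each way in the equal-number lists, and the 3 longest shared ipsilateral peaks. The classes, lists and rules were chosen with earlier results of these data known. The overlap of side-only peaks with other lists under the alternatives was added after seeing the data.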

Additional observations from a re-analysis of the deposited data

Results flagged for a closer look

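The order of the sides in rank was the opposite at 13 months. Over one-to-one shared promoter-type pairs, the median fold percentile difference, ipsilateral minus contralateral, was 3.50 at 21 months and −3.16 (−3.33 to −3.00, 18202 pairs) at 13 months. Over distal pairs it was 9.65 at 21 months and −8.21 (−8.97 to −7.44, 11893 pairs) at 13 months. What drew attention is that the difference between the sides has opposite signs at the 2 ages; it rests on 1 pooled list per group, and the difference between the ages was not tested. The 13-month lists kept 19323327 ChIP tags ipsilaterally and 46299770 contralaterally, after 82% and 55% of tags had been removed as duplicates, and their part in the result was not tested. Percentiles also depend on the side-only peaks of each list, whose part was not tested either. Distal side-only peaks had median percentiles of 32.8 ipsilaterally and 46.8 contralaterally at 21 months, and 33.6 and 36.0 at 13 months. Lists of the 2 ages lie in separate processing folders, per the file headers, so age and processing run cannot be told apart.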

How the results depend on the processing

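No paired analysis was possible because the libraries of a group were pooled before peak calling, and leaving out a replicate could not be run for the same reason. The 10 results were repeated under 6 alternatives. Only the medians over pairs could change sign, since shares are always positive, and 0 of them did. Over all 10 results, 13 values moved by less than the counting error and 47 by more. Among those 13, the share of peaks that were promoter-type could not move with a reciprocal overlap of 50%. Nor could its ipsilateral value move with equal numbers. Shares are given as promoter-type ipsilateral and contralateral, then distal ipsilateral and contralateral. Shared peaks made up 74.5%, 74.8%, 31.3% and 30.1% with equal numbers of peaks, and 73.6%, 79.9%, 25.4% and 31.6% at a −log10 q-value of at least 5. They made up 47.6%, 45.3%, 15.9% and 12.7% with a reciprocal overlap of 50%, and 84.3%, 85.6%, 36.7% and 30.8% with peaks within 1 kb joined. They made up 88.4%, 87.8%, 37.0% and 29.1% when promoter-type meant overlap with H3K4me3, and 68.2%, 63.3%, 35.2% and 27.3% when it meant within 5 kb. The contralateral share was thus the higher one in promoter-type peaks under equal numbers, the q-value limit and joining, and in distal peaks under the q-value limit. Each share also depends on the number of peaks in its class. Over all peaks, 30676 of 39882 ipsilateral and 30410 of 41965 contralateral promoter-type peaks were shared. With equal numbers these were 29724 of 39882 and 29195 of 39055. The part of class size in the order of the sides was not tested. Promoter-type peaks made up 47.1% of ipsilateral and 51.4% of contralateral peaks at the q-value limit, which kept 71647 ipsilateral and 59955 contralateral peaks. They made up 28.4% and 24.6% by overlap, 49.6% and 45.1% within 5 kb, 35.6% and 31.3% after joining, and 38.1% of contralateral peaks with equal numbers. The median log2 length ratio was −0.11 for promoter-type and −0.18 for distal pairs at the q-value limit, −0.056 and −0.028 with reciprocal overlap, −0.11 and −0.16 after joining, and −0.13 for distal pairs with equal numbers. The median fold percentile difference was 5.37 for promoter-type and 12.4 for distal pairs with equal numbers, and 8.999 and 13.7 at the q-value limit. It was 11.0 for distal pairs with reciprocal overlap, 6.64 for distal pairs after joining, and 3.07 and 4.02 for promoter-type pairs by overlap and within 5 kb. The overlap of promoter-type side-only peaks with 13-month ipsilateral H3K9ac was higher for ipsilateral-only peaks in 5 of 6 alternatives.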
